A study of Xenopus laevis with 5 samples.

Results

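Oxidative phosphorylation is the work of 5 protein complexes in the inner mitochondrial membrane, and the genes described here are those of their nuclear-encoded subunits. They were taken by symbol, as all genes whose names begin with ndufa, ndufb, ndufs, ndufv, ndufc, sdha to sdhd, uqcr, cox4 to cox8 or atp5. This rule found 80 genes on 123 probes, out of 10007 named genes and 43653 gene probes on the array. Of the 80 genes, 28 belong to complex I, 5 to complex II, 8 to complex III, 18 to complex IV and 17 to complex V, which makes 76 subunits. The same name stems also take in 3 assembly factors of complex I and 1 inhibitor of ATP synthase, which are given apart. Xenopus laevis carries a pair of ancestral genomes, and the suffixes .L and .S mark the copies (homeologs) of a gene from each. Copies were kept as separate genes, and the 80 genes come from 60 symbols without these suffixes.

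The samples were testes of male Xenopus laevis, the African clawed frog, raised from tadpoles of Nieuwkoop-Faber stage 46. One group lived for 90 days in water with 100 µg/L of simazine, a chlorotriazine herbicide, and gave 3 testis samples (simazine 1, 2 and 3). The control group lived for 90 days in water with 0 µg/L and gave 2 testis samples (control 1 and 2). Both groups had the same water renewal and diet, and the question was how the exposed testis differs in gene expression. Each sample was hybridised to 1 one-colour Agilent array. The labels do not say that the testes came from separate animals, so p-values measure only the spread between these samples, which may be technical.

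Complexes I and II take electrons from NADH and succinate and pass them to ubiquinone, complex III passes them on to cytochrome c, and complex IV hands them to oxygen. Complexes I, III and IV pump protons across the membrane while doing so, and complex V, the ATP synthase, uses the returning protons to make ATP. In the testis, this route is known for its place in meiotic and later germ cells and in the mitochondria of the sperm midpiece, and steroid-producing Leydig cells also depend on mitochondria.

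The arrays lay on 2 slides, as the scan identifiers in the file headers show. Slide 1 held simazine 2 and control 1, and slide 2 held simazine 1, simazine 3 and control 2. The upper quartile (75th percentile) of signal was 2476, 4883 and 1564 intensity units on simazine 1, 2 and 3, against 6693 and 2380 on control 1 and 2. The scanner software judged 69.1% to 85.1% of the gene spots per array well above background. The first principal component, with 64.1% of the variance, separated the slides rather than the groups. The second, with 19.3%, separated the groups. It put simazine 1, 2 and 3 at 13.4, 50.1 and 42.2 and control 1 and 2 at -32.0 and -73.6. Areas of the arrays were distorted, and 25.5% of the gene spots lay in such areas. These spots were left out of the tests, except in the alternatives that keep them. Markers of germ cells (3 genes measured), of spermatids and sperm (8) and of Sertoli and Leydig cells (8) were well above background on all 5 arrays. Of the markers of oocytes, 9 of 11 measured genes were also well above background on all 5 arrays. Unlike the other markers, 11 of 11 were called lower in the simazine samples, with log2 differences from -6.01 to -3.45. Their summed level, relative to the 75th percentile of each array, was 1.50 to 1.73 in the simazine samples and 29.2 and 39.5 in the controls. Marker lists of skeletal muscle, heart muscle, blood, and pancreas and intestine had 0 genes called. At an unadjusted p under 0.05 (limma), zpbp2.L of sperm (log2 difference 1.27), tnnt3.L (0.85) and tnni3.S (1.42) of muscle were higher. So were cela3b.L (1.02) and prss3.S (2.44) of pancreas and intestine. With the slide as a block prss3.S passed (limma, adjusted p = 0.033).

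No oxidative phosphorylation gene passed the test for a difference between simazine and control testes. Of the 80 genes, 66 could be tested, among them 63 subunits, and 0 were called higher and 0 lower at an adjusted p of 0.05 (limma, Benjamini-Hochberg over 26995 probes). Over all 8089 named genes tested the same fit called 0.0124% higher and 0.717% lower. At an unadjusted p under 0.05, 1 member stood higher and 0 lower, against 0.964% and 3.34% of all named genes. The groups did not overlap for 2 members that were higher and 2 that were lower, or 4 of 66, while 7.89% and 8.57% of all named genes separated in these directions. Only 1 of the 63 subunits differed by 2-fold or more, against 4.91% of all named genes. A bulk sample cannot tell fewer cells of a type from less RNA per cell, and that holds for every difference below.

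Within the 63 subunits, 43 had a value below 0 and 20 above, and the median log2 difference was -0.09. The median of all named genes was -0.0040, with 50.4% of them below 0. The subunit median moved with the slide and with single arrays. It was 0.0045 with the slide as a block, with 33 subunits above 0 and 30 below, and -0.0088 between the arrays of slide 1 and 0.04 between those of slide 2. Without control 1 it was 0.23, without control 2 -0.43 and without simazine 3 0.01. Per complex the medians were -0.09 for I, -0.17 for II, -0.25 for III, -0.26 for IV and -0.04 for V. With the slide as a block they were 0.03, -0.13, -0.12, -0.07 and 0.17. Without the slide in the fit, each single gene was measured with a wide error. The standard error of the difference had a median of 0.52 over the subunits, with a range of 0.27 to 1.13, against a median of 0.38 over all named genes. For 11 of the 63 subunits the 95% interval lay within a 2-fold change in either direction, against 27.1% of all named genes. These errors and intervals include the spread between slides. For ndufs4.S the standard error was 1.02, while its slide difference, with group and slide both in the fit, had 0.16. For ndufb3.S the same values were 0.61 and 0.59. Intervals of the group difference with the slide as a block are not given here.

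**Figure D1:**
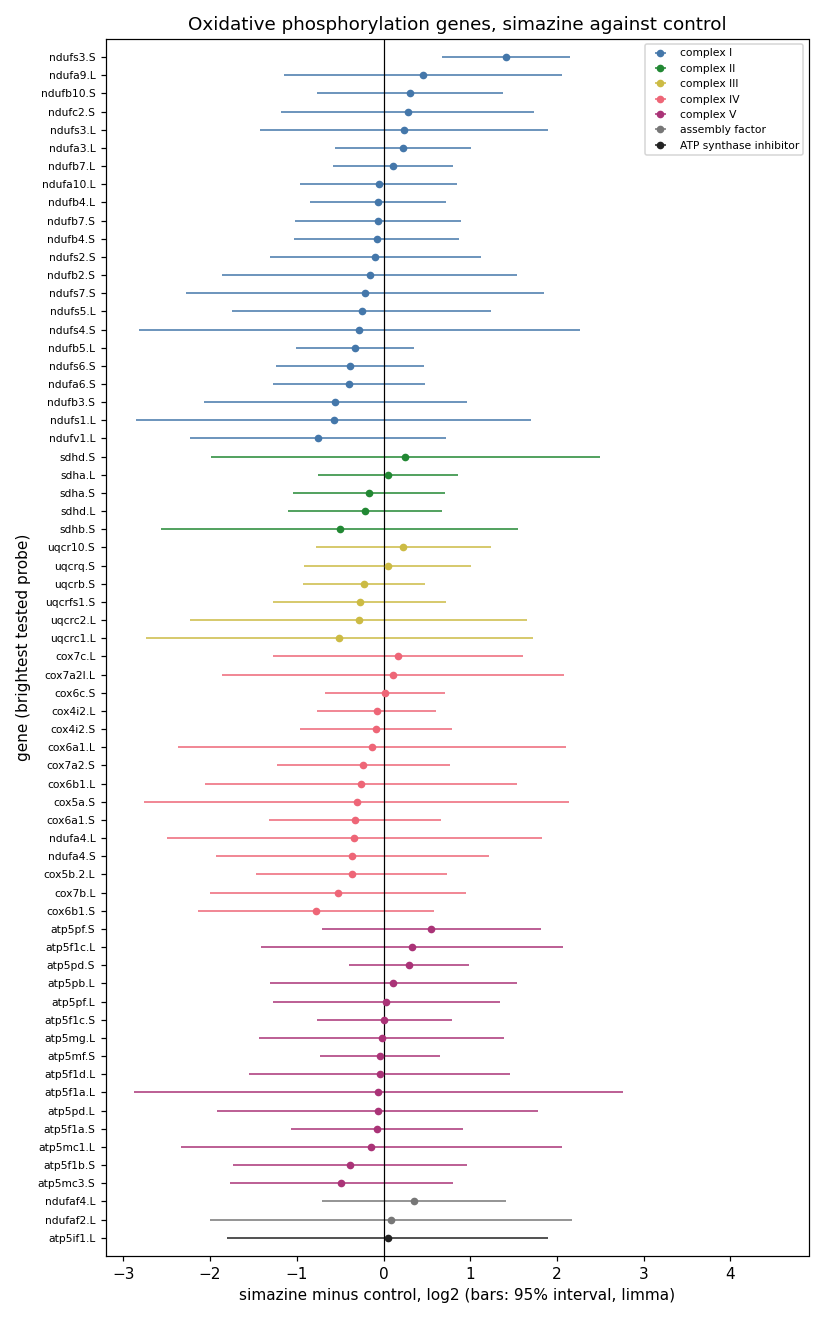
Difference between simazine and control samples (log2, x axis) for each tested oxidative phosphorylation gene (y axis, ordered by complex and by value). Bars show the 95% interval from limma without the slide in the fit. The interval of ndufs3.S, from 0.68 to 2.15, is the only one of the 66 that leaves out 0.

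Complex I is the largest of the 5 and has a matrix arm that oxidises NADH and a membrane arm that pumps protons. Of its 28 genes 22 were tested and the other 6 had probes only in distorted areas. The one gene that stood apart was ndufs3.S, a copy of the gene for a core subunit of the part of the matrix arm that leads to ubiquinone. Its log2 signal, relative to the 75th percentile of the array, was -0.57, -0.16 and -0.22 in simazine 1, 2 and 3, and -1.67 and -1.80 in control 1 and 2. All 3 simazine samples were above both controls, and the gap between the groups exceeded the spread within each. The means were -0.32 ± 0.22 (SD, n = 3) in simazine samples and -1.73 ± 0.10 (SD, n = 2) in controls. The log2 difference was 1.41 with a standard error of 0.29, an unadjusted p of 0.00382 and an adjusted p of 0.315. Slide 1 alone gave 1.50, slide 2 alone gave 1.40, and the fit with the slide as a block gave 1.45 at an adjusted p of 0.0862. Over all alternatives with a test the difference lay between 1.26 and 1.54 and the adjusted p between 0.0680 and 1.00, so the gene never passed. It was read by 1 probe, whose spot the scanner software had marked as irregular (non-uniform or an outlier) on both arrays of slide 1 and on no slide 2 array, as for 41 of the 87 tested member probes (47.1%) and 43.8% of all tested probes. Every tested member probe carried such a mark on at least 1 array. Oocyte markers separated the same samples in the opposite direction, and their part in this value was not tested.

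The other copy, ndufs3.L, showed no such separation. Its log2 signal was 1.92, 3.21 and 1.59 in simazine samples and 2.69 and 1.31 in controls, with a difference of 0.24 and a standard error of 0.66. The arrays of slide 1 gave the high value in both groups. The log2 difference of .L minus that of .S was -1.18, a contrast that was not tested in itself. The only probe of ndufs3.L was marked as irregular on all 5 arrays.

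The subunits of complex I that bind NADH and carry the first electrons were well above background on all arrays. They did not separate the groups. Spots of their brightest probes were marked as irregular on 4 of 5 arrays for ndufv1.L and on 3 of 5 for ndufs1.L. The gene ndufv1.L, for the subunit that holds the flavin and binds NADH, had 4.59, 5.31 and 3.43 in simazine samples and 5.20 and 5.20 in controls. Its difference of -0.75, the lowest of complex I, had a standard error of 0.59. Simazine 1 and 3 were below the controls, simazine 3 by the wider margin, and simazine 2 was above them. Without simazine 3 the difference was -0.25. A second probe of ndufv1.L gave -0.44. The gene ndufs1.L, for a large subunit with iron-sulfur clusters, had 1.51, 3.44 and 1.48 in simazine samples and 3.81 and 1.63 in controls. Both slide 1 arrays were high and the 3 slide 2 arrays low, so that the difference of -0.58 had a standard error of 0.91. The dimmer probes of ndufs1.L gave -0.01 and 0.04.

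At the upper end of complex I after ndufs3.S was ndufa9.L, for an accessory subunit close to the ubiquinone site. It had 1.42, 3.02 and 1.54 in simazine samples and 2.11 and 0.97 in controls, a difference of 0.45 with a standard error of 0.64. Within each slide simazine was the higher group, by 0.91 on slide 1 and on average 0.51 on slide 2, and the blocked value was 0.68 at an adjusted p of 0.320. The accessory subunit ndufs4.S shows the slide pattern in its plainest form. It had 1.86, 4.10 and 1.84 in simazine samples and 4.08 and 1.67 in controls. The 2 high arrays were those of slide 1, one from each group, and the difference between the groups was -0.28 with a standard error of 1.02. In the membrane arm, ndufb5.L had 4.58, 4.77 and 4.71 in simazine samples and 4.97 and 5.06 in controls. All simazine values were below both controls, yet the difference of -0.33 was little larger than its standard error of 0.27. The only probe of ndufb5.L was marked as irregular on all 5 arrays. The remaining complex I genes had differences from -0.56 (ndufb3.S) to 0.31 (ndufb10.S).

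**Figure D2:**
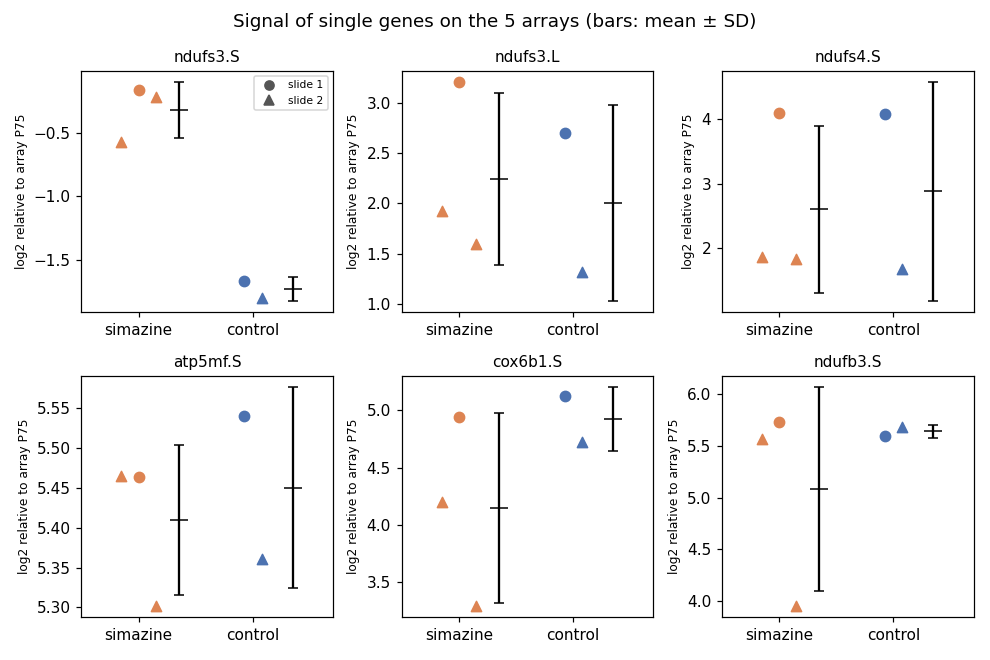
Log2 signal relative to the array's 75th percentile (y axis, scaled per panel) of 6 genes in simazine and control samples (x axis), with circles for slide 1, triangles for slide 2, and bars for mean ± SD. The groups separate only for ndufs3.S, ndufs4.S and ndufs3.L follow the slide, and in cox6b1.S and ndufb3.S the lowest point is simazine 3.

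Complex II, succinate dehydrogenase, is also an enzyme of the citrate cycle and is the only one of the 5 that holds no subunit encoded by mitochondrial DNA. All 5 of its genes on the array were tested, and none separated the groups. The flavoprotein gene sdha.L, which binds succinate, had 3.64, 3.60 and 3.07 in simazine samples and 3.29 and 3.49 in controls. Simazine values lay on both sides of the controls, and the difference was 0.05 with a 95% interval from -0.76 to 0.86. Its copy sdha.S gave -0.17 with a standard error of 0.35. The iron-sulfur subunit gene sdhb.S had 1.83, 3.71 and 1.84 in simazine samples and 3.86 and 2.07 in controls, a difference of -0.50 with a standard error of 0.82. Again the arrays of slide 1 were the high ones in each group.

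The membrane anchor sdhd, which helps to bind ubiquinone, showed how far single probes can part by slide. The copy sdhd.S had -0.16, -2.29 and -0.24 in simazine samples and -2.12 and -0.18 in controls. The low values were those of slide 1 in both groups, the reverse of sdhb.S, and the group difference was 0.25 with a standard error of 0.90. A dimmer second probe of sdhd.S had -2.74, -1.71 and -2.69 in simazine samples and -1.87 and -2.64 in controls. On that probe the slide 1 arrays were the high ones, so the slide pattern was not shared by the probes of this copy. The copy sdhd.L had 2.55, 3.18 and 2.42 in simazine samples and 3.06 and 2.80 in controls, and its difference was -0.22 with a standard error of 0.35.

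Complex III passes electrons from ubiquinol to cytochrome c. Of its 8 genes 6 were tested, with differences from -0.51 to 0.23, and the other 2 had probes only in distorted areas. The core proteins, which are related to mitochondrial processing peptidases, gave the lowest values. For uqcrc1.L these were 3.42, 5.30 and 3.34 in simazine samples and 5.59 and 3.46 in controls. The difference of -0.51 had a standard error of 0.89, and the high arrays were those of slide 1. For uqcrc2.L the difference was -0.29 with a standard error of 0.78, and with the slide as a block it was -0.0040. A dimmer probe of uqcrc2.L gave 0.08 with a standard error of 0.36. The small subunits were steadier. The gene uqcrq.S, for a ubiquinone-binding subunit in mammals, had 5.85, 5.25 and 5.79 in simazine samples and 5.20 and 5.96 in controls, a difference of 0.05 with a standard error of 0.38. The highest value of the complex was 0.23 for uqcr10.S, with a standard error of 0.40. For uqcrb.S all simazine values (5.03, 5.15 and 5.34) were below both controls (5.45 and 5.34), by a margin too small to show at 2 decimals in the nearest pair. Its difference was -0.22 with a standard error of 0.28. The Rieske iron-sulfur protein gene uqcrfs1.S gave -0.27 with a standard error of 0.40.

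Complex IV, cytochrome c oxidase, contains many small subunits around a core encoded by mitochondrial DNA, and several have tissue isoforms. The gene ndufa4, first described as part of complex I and now placed here, was counted with it. Of 18 genes 15 were tested, 12 with values below 0 and 3 above. With the slide as a block, 10 were below 0 and 5 above. The lowest was cox6b1.S, for a subunit on the side that faces cytochrome c. It had 4.20, 4.95 and 3.29 in simazine samples and 5.12 and 4.73 in controls. Simazine 2 lay between the controls, simazine 1 and 3 lay below them, and the difference of -0.78 had a standard error of 0.54. Within slide 1 it was -0.18 and within slide 2 -0.98. The copy cox6b1.L gave -0.26 with a standard error of 0.72. For cox7b.L, a small membrane subunit, simazine samples had 5.11, 4.97 and 3.58 and controls 4.65 and 5.52. Only simazine 3 was below the controls, and the direction of the difference, -0.53 with a standard error of 0.59, turned to 0.32 within slide 1. The highest values of the complex were 0.17 for cox7c.L and 0.10 for cox7a2l.L, with standard errors of 0.58 and 0.79.

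Isoforms of complex IV subunits were compared only between groups, since levels of different probes cannot be set against each other. Cox4 has a common isoform and a second one, cox4i2, that in mammals is known from lung and from low oxygen. Both copies of cox4i2 were tested. The copy cox4i2.L had 3.41, 3.60 and 3.65 in simazine samples and 3.65 and 3.62 in controls, with a difference of -0.08 and a 95% interval from -0.77 to 0.61. Values of the groups overlapped and spread little over both slides. The copy cox4i2.S gave -0.09 with a standard error of 0.35, and the only gene of the common isoform, cox4i1.S, lay in a distorted area. Of the cox6a isoforms, the widely expressed cox6a1 was tested in both copies, with -0.13 and a standard error of 0.89 for .L and -0.33 and a standard error of 0.40 for .S. The isoform known from heart and skeletal muscle in mammals, cox6a2.L, was not well above background on any of the 5 arrays. For cox7a2.S, the widely expressed cox7a, the difference was -0.23 with a standard error of 0.40. The related cox7a2l.L, known as a factor that joins complexes III and IV, had 3.02, 4.35 and 1.95 in simazine samples and 3.59 and 2.41 in controls, which overlapped.

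Complex V consists of a catalytic head in the matrix, a rotating ring in the membrane and a stalk that holds the head still. Of 17 genes 15 were tested, 9 below 0 and 6 above. With the slide as a block, 3 were below 0 and 12 above. In the head, atp5f1b.S, for the catalytic beta subunit, had 5.58, 6.10 and 4.45 in simazine samples and 5.85 and 5.68 in controls. Simazine 1 and 3 were below the controls and simazine 2 above them, and the difference was -0.39 with a standard error of 0.54. Its other tested probes gave -0.64 and -0.13. The alpha subunit gene atp5f1a.L had 1.37, 4.18 and 1.21 in simazine samples and 3.38 and 1.25 in controls. The difference was -0.06, and its standard error of 1.13, the widest of all members, went with a gap between slides on both sides. The gene atp5f1c.L, for the central gamma subunit, gave 0.33 with a standard error of 0.70, and its copy atp5f1c.S 0.01 with a standard error of 0.31.

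The ring of complex V is built from subunit c, which in vertebrates is made from several genes that encode the same mature protein. The gene atp5mc3.S had 6.23, 6.43 and 4.98 in simazine samples and 6.46 and 6.28 in controls. Simazine 1 and 2 were close to the controls and simazine 3 was lower. The difference of -0.49 had a standard error of 0.51, and 2 probes gave -0.49 and -0.50. For atp5mc1.L the difference was -0.14 with a standard error of 0.88. In the stalk, atp5pf.S (coupling factor 6) gave 0.55 with a standard error of 0.50, the highest value of the complex. It had 1.59, 0.72 and 1.94 in simazine samples and 0.41 and 1.33 in controls, with the low arrays again those of slide 1. The stalk subunit gene atp5pd.S had 4.45, 4.47 and 4.33 in simazine samples and 4.25 and 4.01 in controls. All simazine values were above both controls, but its second probe gave -0.21 against 0.29 for the first, with a standard error of 0.28. The steadiest reading was atp5mf.S, for a membrane subunit. It had 5.46, 5.46 and 5.30 in simazine samples and 5.54 and 5.36 in controls. The difference was -0.04 with a 95% interval from -0.73 to 0.65.

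Outside the complexes, the inhibitor atp5if1.L, which stops the ATP synthase from running backwards, gave 0.05 with a standard error of 0.74. The complex I assembly factors gave 0.35 with a standard error of 0.42 for ndufaf4.L and 0.08 with a standard error of 0.83 for ndufaf2.L.

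Members could be checked against themselves through repeated probes and copies. For 17 genes with more than 1 tested probe (38 probes) the differences from single probes spanned a median range of 0.31 and at most 0.62. The probes of 8 of these 17 genes had opposite signs, and no gene had probes more than 1 apart. Both copies of 13 genes were tested. The log2 differences of the .L and .S copies were a median of 0.22 apart, and ndufs3 was the only pair more than 1 apart. By their brightest tested probes, copies parted more by slide than by group. In 6 of 13 pairs the slide differences were more than 1 apart, with sdhd the widest at 2.53. Probes of the same copy could part by slide too. The brightest probe of atp5pd.S had 4.25 and 4.47 on the slide 1 arrays and 4.01 to 4.45 on slide 2. Its second probe had 4.61 and 4.53 against 2.70 to 3.05. These slide gaps can therefore not be assigned to the copies.

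The subunits separated the slides more than they separated the groups. With the group in the model, the median log2 difference between slide 1 and slide 2 was 0.67 over the 63 subunits, against 0.23 over all named genes. Marked spots differed between these sets too, since 0 of 87 tested member probes had no mark, against 33.8% of all tested probes, and all probes without a mark had a median slide difference of -0.27. By mark, the medians of member probes and of all tested probes were 0.57 and 0.27 for marks on both slide 1 arrays and no slide 2 array, 0.50 and 0.12 for marks on slide 2 arrays only, and 1.11 and 0.36 for other marks. At an adjusted p of 0.05 (limma, Benjamini-Hochberg), 24 subunits were called higher on slide 1 and 3 lower, where 20.3% of all named genes were higher and 8.96% lower. Both slide 1 arrays were above all 3 slide 2 arrays for 38 of 63 subunits (60.3%), against 40.8% of all named genes. The largest slide differences were 2.56 for atp5f1a.L, 2.32 for ndufs4.S and 2.18 for cox5a.S, which codes for a subunit on the matrix side of complex IV. A second tested probe of atp5f1a.L was also higher on slide 1. Brighter probes of atp5f1a.L and cox5a.S in distorted areas were not. They had 6.54 and 6.77 on slide 1 against 6.94 to 7.31 on slide 2, and 5.99 and 6.01 against 6.02 to 6.72. The lowest slide difference was -2.03 for sdhd.S, whose second probe was higher on slide 1. By complex the medians were 0.65 for I, 0.06 for II, 0.21 for III, 0.77 for IV and 1.03 for V. With no spot left out 18 subunits were called higher on slide 1 and 2 lower, where 1052 of 8089 named genes were higher. With the local deviation subtracted 21 and 3 subunits were called, where 1636 of 8089 named genes were higher. Medians of the other mitochondrial and energy lists ran from 0.54 for the mitochondrial ribosome, 0.49 for glycolysis, 0.45 for the citrate cycle and 0.40 for mitochondrial DNA and its regulators to 0.19 for assembly factors, 0.01 for electron carriers and -0.07 for carriers and porins. The scanner software removed a multiplicative trend on the slide 2 arrays only, and its part in these values was not tested. Since 1 of 3 simazine arrays and 1 of 2 control arrays lay on slide 1, a comparison that ignores the slide gives the slide unequal weight in the groups.

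**Figure D3:**
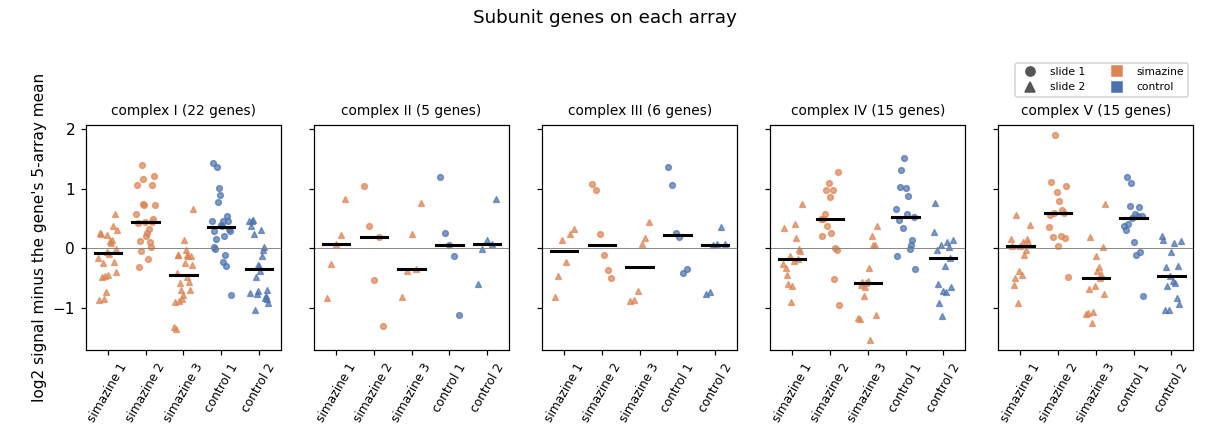
Log2 signal of each tested subunit minus its own mean over the 5 arrays (y axis), per array (x axis) and complex (panels), with a line at the median. Over all 63 subunits the medians are -0.06, 0.44 and -0.50 for simazine 1, 2 and 3 and 0.38 and -0.29 for control 1 and 2, so that simazine 2 and control 1, the arrays of slide 1, stand highest.

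**Figure D4:**
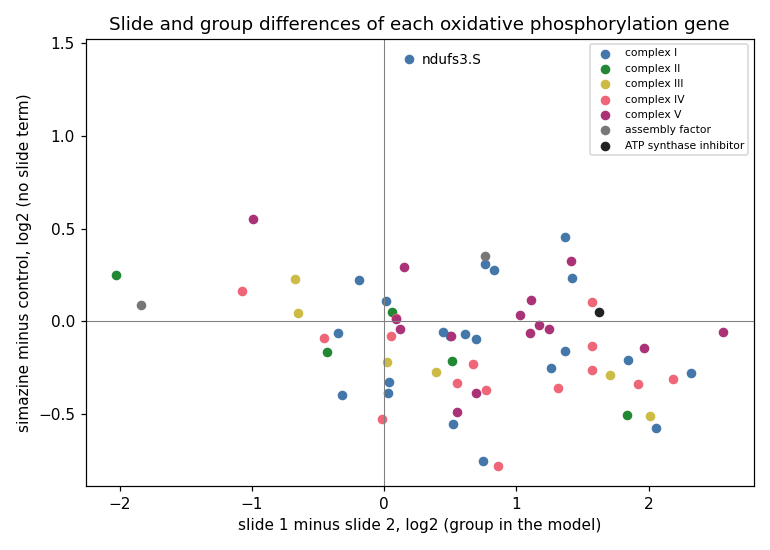
Difference between simazine and control (log2, y axis) against the difference between slide 1 and slide 2 (log2, x axis) for each tested member, coloured by complex. Slide differences run from -2.03 to 2.56 and group differences from -0.78 to 1.41, and ndufs3.S combines the largest group difference with a slide difference of 0.19.

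Within slide 2, the simazine samples also differed from each other in some of the subunits. These were mostly not the subunits with the largest slide differences, as ndufs4.S had 1.86 in simazine 1 and 1.84 in simazine 3. Of the 63 subunits, 10 (15.9%) were more than 1 lower on the log2 scale in simazine 3 than in simazine 1, and 0 were more than 1 higher, while 5.17% of all named genes were that much lower. Simazine 3 gave the lowest of the 5 values for 27 subunits (42.9%), against 29.9% of all named genes. The median of simazine 3 minus simazine 1 was -0.15 over the subunits and -0.06 over all named genes. It was -0.18 for the citrate cycle and -0.13 both for assembly factors and for the mitochondrial ribosome. For glycolysis it was -0.04, for electron carriers -0.01, for mitochondrial DNA and its regulators -0.0034 and for carriers and porins 0.10. The membrane-arm subunit ndufb3.S had 5.56, 5.73 and 3.95 in simazine samples and 5.60 and 5.68 in controls, so that only simazine 3 stood apart. The 10 genes also included atp5f1b.S, atp5mc3.S, cox7b.L and ndufv1.L, each among the 2 lowest group differences of its complex. A low value in simazine 3 by itself lowers the group difference. The 10 also held cox7a2l.L, among the 2 highest of its complex, and ndufc2.S, with a group difference of 0.28. Simazine 3 also had the lowest 75th percentile of signal, 1564 intensity units. Spots marked as irregular on slide 2 arrays only made up 18 of the 87 tested member probes (20.7%), against 6.50% of all tested probes. Their median difference of simazine 3 and simazine 1 was -0.48, against 0.04 for the 41 member probes marked on both slide 1 arrays and on no slide 2 array and -0.36 for the other 28. Over all tested probes the medians were -0.19, 0.02 and -0.12 for the same classes of mark. Whether signal strength or the marked spots account for the low values was not tested.

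Distorted areas held 35 of the 123 probes and every probe of 13 of the 80 genes. There the groups did not overlap for 12 of 35 probes (5 higher, 7 lower), a share of 34.3% beside 35.5% of all probes in such areas. Outside them it was 5 of 87 probes, or 5.75%, beside 14.4% of all tested probes. With no spot left out, 2 of 122 member probes passed an adjusted p of 0.05, both higher in simazine samples, where 0.352% of all probes were called higher and 0.671% lower. One was a probe of ndufaf7.S, an assembly factor of complex I, with -3.99, -4.26 and -3.75 in simazine samples and -8.50 and -8.33 in controls. It was not well above background on either control array, so the difference of 4.41 (limma, adjusted p = 0.017) has no exact size. Set against the lowest signals that were, it was at least 14.5-fold, but this makes no allowance for the distorted area. The second probe of the gene, also in a distorted area, gave -2.44. The area around the spot deviated by 0.00, 0.95 and 1.60 on simazine 1, 2 and 3 and by -1.67 and -1.10 on control 1 and 2. The other was a probe of ndufaf4.L with 2.51 (adjusted p = 0.048), beside 0.35 and 0.78 from the probes of that gene outside distorted areas.

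Among the subunits, the Rieske protein gene of complex III had a probe in such an area too. The only probe of uqcrfs1.L had 0.61, 2.07 and 1.52 in simazine samples and 4.24 and 5.39 in controls. All simazine values were well below both controls, and with no spot left out the difference was -3.42 (adjusted p = 0.084). The surrounding area deviated the same way, by -1.19, 0.00 and -0.55 on the simazine arrays and by 1.27 and 1.64 on the control arrays. The copy uqcrfs1.S, outside such areas, gave -0.27. For cox4i1.S, the common isoform of cox4, simazine samples had 3.63, -1.29 and 0.45 and controls 3.60 and 3.45. Simazine 1 was at the level of the controls while the others were low, and the area deviated by -1.41 on simazine 2 and -0.49 on simazine 3. The third probe of cox7a2l.L gave -2.41 where its probes outside gave 0.10 and -0.11. Likewise sdhb.S gave 1.46 inside and -0.50 outside, ndufa9.L -1.20 and 0.45, and ndufb4.S -1.57 and -0.08, where the inside probe of ndufb4.S was well above background on 1 of 3 simazine and 2 of 2 control arrays. The remaining probes in such areas whose groups did not overlap gave 0.64 for sdha.S and 0.37 for atp5pf.S, and -0.84 for sdhd.L, -0.88 for atp5f1a.S and -0.45 for ndufa13.L. No member from a distorted area is counted as called.

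**Figure D5:**
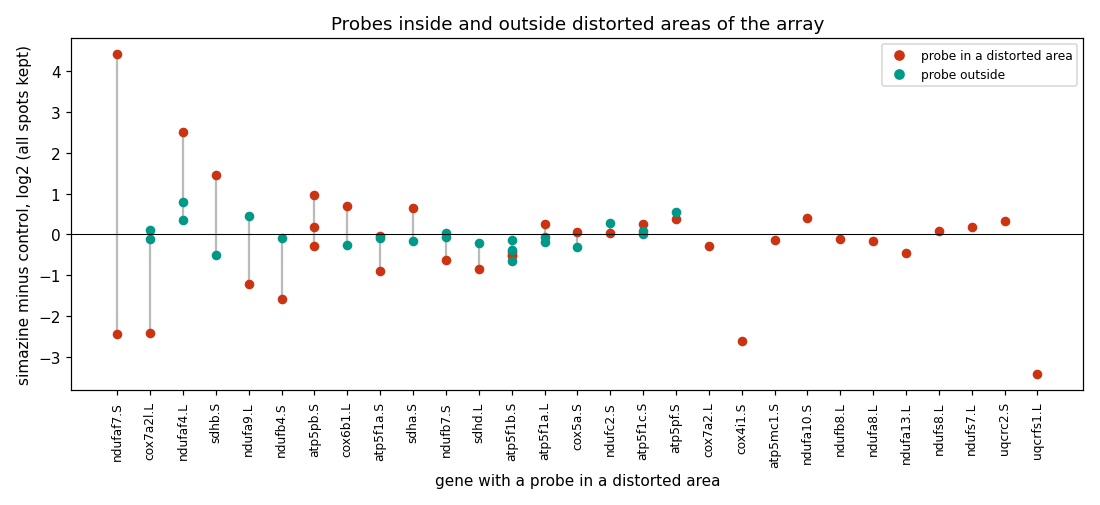
Difference between simazine and control with no spot left out (log2, y axis) for each probe of the genes that have a probe in a distorted area (x axis), with red points for probes inside and green for probes outside such areas, joined per gene. Inside values range from -3.42 for uqcrfs1.L to 4.41 for ndufaf7.S, which was not well above background in the controls.

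Genes of mitochondrial energy supply were also read from lists of related pathways, and none was called. The list of assembly factors holds ndufaf2.L and ndufaf4.L, which the name rule takes too, so both are counted in each set. Electron carriers and their synthesis (19 genes tested), assembly factors of the complexes (18), the citrate cycle (19), mitochondrial DNA and its regulators (12), carriers and porins (16), the mitochondrial ribosome (34) and glycolysis (22) had 0 genes called higher and 0 lower in each list. Their median differences were 0.02, 0.04, 0.17, -0.02, 0.18, -0.07 and -0.17 in that order. At an unadjusted p under 0.05, 1 of these 140 genes (0.714%) was higher and 3 (2.14%) were lower, both shares below the 0.964% and 3.34% of all named genes. The ubiquinone-related coq10b.L had -1.29, -1.47 and -1.30 in simazine samples and -0.41 and -0.66 in controls, a difference of -0.82 with a standard error of 0.28. The gene suclg2.L, for a subunit of succinyl-CoA ligase in the citrate cycle, differed by 1.05 with a standard error of 0.40. The glycolytic gapdh.S differed by -0.74 with a standard error of 0.28. For mrpl53.L of the mitochondrial ribosome, simazine samples had -3.26, -3.39 and -3.23 and controls -2.21 and -2.10. All simazine values of mrpl53.L were below both controls, with a difference of -1.14, a standard error of 0.27 and an adjusted p of 0.464. Among electron carriers, cytochrome c1 of complex III, which the name rule does not take, gave 0.40 for cyc1.L and -0.04 for cyc1.S, with standard errors of 0.29 and 0.40.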

How the data were processed

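The authors deposited scanner tables of linear intensity. Per the file headers, version 10.7.3.1 of Agilent Feature Extraction wrote them, subtracted the background and, on the slide 2 arrays alone, divided out a multiplicative trend. The authors also deposited a log2 table of 27228 probes, which is the log2 processed signal shifted by 1 constant on each array (99.3% to 99.99% of probes within 0.001), so its scale is known and the origin of the constant is not. Its medians were 0.958, 1.02 and 0.949 for simazine 1, 2 and 3 and 1.06 and 0.951 for control 1 and 2. Replicates were numbered in accession order.

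Here, signals were set on the log2 scale relative to each array's 75th percentile. Of 36331 accessions, 10012 had a symbol in the supplied RefSeq table, giving 16032 named probes. Control spots were left out, and spots marked non-uniform or outlier were kept. The position filter dropped a spot from every array if its local deviation, a median over 5 rows and 9 columns, exceeded 0.5 log2 on any of them (11190 spots). Probes well above background on at least 2 of 5 arrays were tested for simazine minus control in R 4.3.3 by limma 3.58.1 (two-sided; lmFit, then eBayes). Benjamini-Hochberg adjustment covered all 26995 tested probes, 108 of which passed 0.05. The script was tested on simulated data. A gene is its brightest tested probe, and no member spot was saturated. The number of arrays limits the precision, and the fit used for the tests has no slide term.

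The members, lists, filter and tests were chosen with earlier results of these data known. Named were, per complex, the 2 highest and the 2 lowest differences, members with an unadjusted p under 0.05 and no overlap, isoform sets, all complex II genes and members in distorted areas whose groups did not overlap. Other genes in the text, such as ndufs4.S, ndufb3.S, ndufb5.L, uqcrb.S, cox5a.S, atp5f1a.L, atp5pd.S and atp5mf.S, and the genes of the other lists, were chosen after their values were seen. The alternatives covered marked spots, position filter, normalization, background, dim probes, slide, array weights, probe choice and each array left out. The normexp alternative used median signals with an offset of 50, since the tables given here hold no mean signal. No value column was left unmapped.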

Additional observations from a re-analysis of the deposited data

How the results depend on the processing

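In the alternatives each gene kept the probe used above wherever it was tested, and otherwise took its brightest tested probe. Read so, or by the mean of its probes, no oxidative phosphorylation gene passed the threshold under any alternative with a test. By single probes, 2 passed with all spots kept, without and with the slide as a block, the distorted ndufaf7.S and ndufaf4.L probes. With all spots kept, that ndufaf4.L probe was the brightest of its gene by the mean over arrays, so the gene's result depends on the probe kept. For the 30 genes named by rule that had a tested probe, read in the same way, 0 of 619 tested differences under alternatives passed. Of all 649, which include 30 from slide 1 alone with no test, 102 changed sign; ndufs3.S, atp5mc3.S, atp5pf.S and cox6b1.S never did. The subunit median ranged from -0.43 to 0.23, and those of complexes I (-0.38 to 0.31), IV (-0.64 to 0.16) and V (-0.53 to 0.45) also took both signs. The complex II median was 0.13 with normexp. The complex III median was 0.16 with the authors' deposited table, 0.048 with quantile normalization and 0.30 with marked spots left out, with or without the distorted areas, and -0.33 to -0.0013 with each array left out. The cause was not tested, though leaving out marked spots leaves fewer values. Over the whole array the number of probes called, 108, moved with most choices. It was 372 with all spots kept, 188 with the local deviation subtracted, 43 with no filter on dim probes, 17 with normexp, 1 with marked spots left out (with or without the distorted areas) and 0 on slide 2 alone. With the slide as a block it was 258, and 825 with all spots kept as well, an alternative chosen after seeing the data, as were the slide differences. It was 0 to 53 with each array left out, which leaves fewer samples. In that setting, as on slide 2 alone, a lone control is assumed to vary like the simazine samples. No paired analysis was possible because the labels give no replicate numbers shared between the groups. With 3 simazine and 2 control arrays and no slide in the fit, the intervals of most subunits reach past a 2-fold change. Differences of that size, smaller and also larger, could be missed here. The log2 difference of 1.41 for ndufs3.S did not pass (limma, adjusted p = 0.315).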
